A study of Mus musculus with 8 samples.

Results

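The genes described here are 9 that are used as markers or regulators of regenerating and fetal-like intestinal epithelium: Ly6a, Clu, Anxa1, Ctgf, Cyr61, Sprr1a, Sprr2a1, Yap1 and Il33. They were taken by symbol from a table of 24013 gene symbols, and all 9 were present. RNA was sequenced from mouse intestinal epithelial cells, sorted as EpCAM positive and free of DAPI and CD45 staining, that carried the red protein tdTomato. All mice were Lyz1CreER; R26R-tdT on a mixed C57/BL6 and 129 background, 8 to 14 weeks old, and had received 1 dose of 10 mg tamoxifen. The irradiated CD24− group (3 libraries) holds tdTomato-positive cells without the surface protein CD24, sorted 5 days after irradiation and labelled as derivatives of Paneth cells. The irradiated CD24+ group (3 libraries) holds the tdTomato-positive cells with CD24 from mice at the same 5 days, labelled as Paneth cells, and the non-irradiated CD24+ group (2 libraries) holds that gate from mice without irradiation. Cre in this line is driven from Lyz1, so tdTomato marks cells that expressed Lyz1 at the time of tamoxifen and whatever they later gave rise to, and the label itself says nothing about what a cell expressed at sorting. No CD24− cells from mice without irradiation were analysed here, so gate and irradiation cannot be told apart between irradiated CD24− and non-irradiated CD24+ cells. The sources used here state neither the radiation dose nor the number of mice behind each library, and p-values therefore measure the spread between these libraries only.

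After damage, crypt cells that survive can switch on genes that the adult epithelium otherwise keeps low and that the fetal gut expresses, before the crypt is rebuilt. Yap1 encodes the co-activator YAP, which the kinases of the Hippo pathway keep out of the nucleus and which, with TEAD transcription factors, drives target genes such as Cyr61 and Ctgf. Ly6a (the surface antigen Sca-1), Clu (clusterin, a secreted chaperone), Anxa1 (annexin A1, a phospholipid-binding protein) and small proline-rich (Sprr) genes are read as marks of the regenerating state in mouse intestine. Il33 encodes a nuclear cytokine of the IL-1 family that damaged epithelium releases.

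The deposited values are FPKM, which are counts of fragments divided by the length of the transcript and by the size of the library. Depth, approximated from the smallest steps between low values, was between 34800000 and 45400000 fragments per library, and the FPKM of a library summed to between 540467 and 1638347. Marker lists were set beside the labels. All 8 Paneth cell markers were measured, and their summed level was 3426 to 20788 FPKM in irradiated CD24− cells, 268974 to 281469 FPKM in irradiated CD24+ cells and 322852 to 381573 FPKM in non-irradiated CD24+ cells. Summed levels of the 9 enterocyte markers were 16102 to 35680 FPKM in irradiated CD24− cells, 825 to 1334 FPKM in irradiated CD24+ cells and 518 to 2347 FPKM in non-irradiated CD24+ cells. Stromal markers were led by Vim, with Lum and Acta2 at 0 in every library. The endothelial genes Kdr and Emcn and the keratinocyte genes Krt5 and Krt1 were also listed at 0 in every library. Another keratinocyte gene, Krt10, ranged between 0.438 and 1.26 FPKM. Replicate 1 of the non-irradiated group reached 1 FPKM at 9362 genes, where the other 7 libraries did so at 10293 to 10697. Replicates with the same number in the irradiated gates deviated together, so results are also given with the replicate number as a block where that changes a call.

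**Figure D1:**
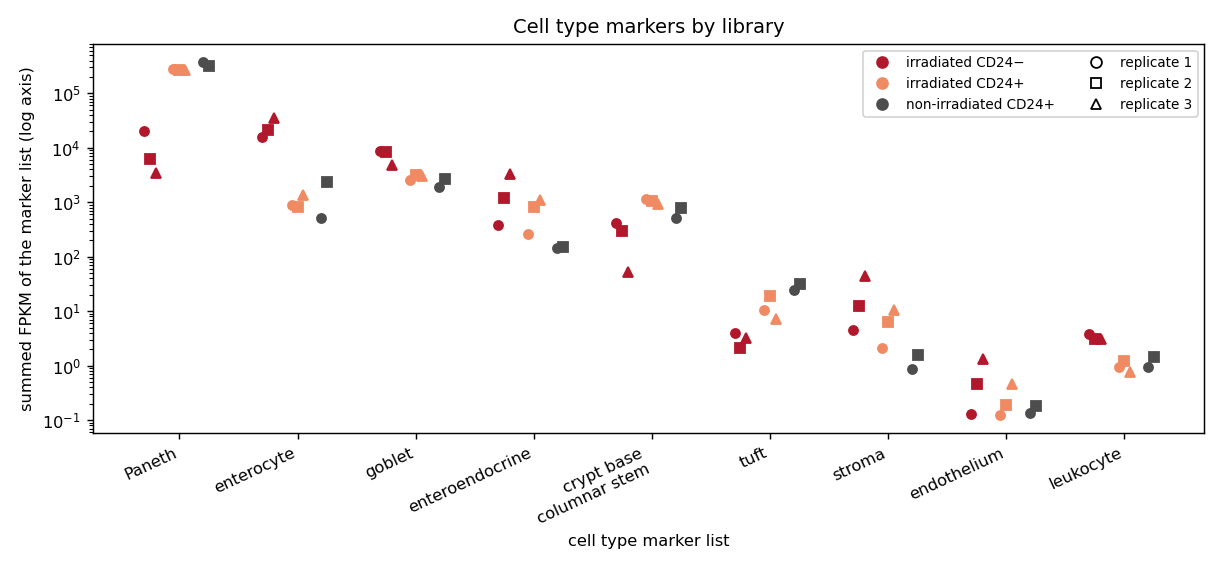
Summed FPKM (log axis) of 9 cell type marker lists in each of 8 libraries, with colour for the group and shape for the replicate number. Enterocyte markers stood above the CD24+ libraries and Paneth cell markers below them in all 3 irradiated CD24− libraries.

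The first comparison asks how the labelled cells outside the CD24 gate differed from those inside it within irradiated mice. The Sprr2a1 level was 637 ± 739 FPKM in irradiated CD24− cells and 20.8 ± 24.3 FPKM in irradiated CD24+ cells, and that of Il33 was 7.62 ± 6.10 FPKM in irradiated CD24− and 0.406 ± 0.443 FPKM in irradiated CD24+ cells (SD, n = 3 each). Both rose past the test, and Yap1 rose by about as much as the median gene. Ly6a, Sprr1a, Clu and Anxa1 were not called. Limma was fitted to log2(FPKM + 1) of the 11190 genes that reached 1 FPKM in 2 or more libraries, and a gene was called where the adjusted p (Benjamini-Hochberg) was under 0.05. Of the 9 genes 7 passed that filter, and Ctgf and Cyr61 did not. Il33 passed it only through the irradiated CD24− libraries, the gate where it was high. Its calls in the comparisons with those cells are therefore not independent of the filter. Limma called 3 of the 7 higher and 0 lower, against 48.6% of all genes tested called higher and 7.27% called lower, so a count of 3 is near the background. The libraries of the gates did not overlap for 3 of the 7, all with CD24− above, against 59.1% of all genes tested with CD24− above and 9.31% with CD24− below. The median log2 fold change was 0.65 over the 7 and 0.51 over all genes tested. In bulk samples such as these, fewer cells of a type and less RNA per cell cannot be told apart.

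**Figure D2:**
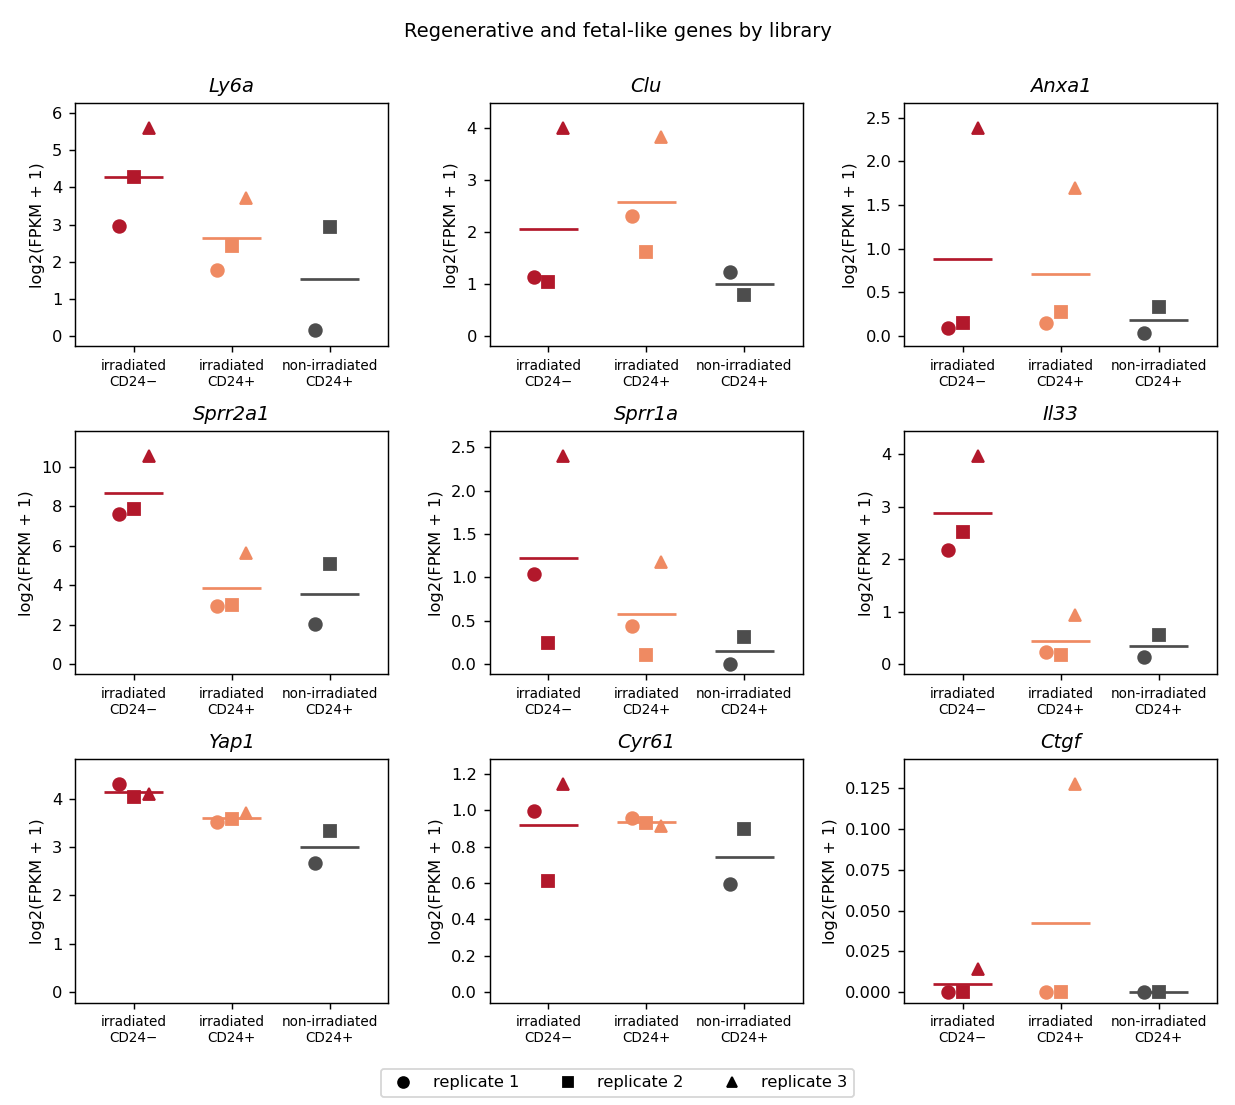
Level of each of the 9 genes as log2(FPKM + 1) in every library, with colour for the group, shape for the replicate number and a bar at the group mean of the log2 values. Replicate 3 of both irradiated gates is the highest of its gate for Ly6a, Clu, Anxa1, Sprr2a1, Sprr1a, Il33 and Ctgf, while Yap1 is tight within each irradiated gate.

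Sprr2a1 and Sprr1a encode small proline-rich proteins, best known as cross-linked precursors of the cornified envelope of squamous epithelium. Both lie on chromosome 3. The 250 bases upstream of their RefSeq start sites (GRCm38.p6) are shown because replicate 3 was the highest library of both irradiated gates for each gene. Sprr2a1 lies on the plus strand (chr3:92215585-92215834) and Sprr1a on the minus strand (chr3:92485882-92486131), and capitals mark the letters TGANTCA, the AP-1 motif, which reads the same on both strands.
Sprr2a1: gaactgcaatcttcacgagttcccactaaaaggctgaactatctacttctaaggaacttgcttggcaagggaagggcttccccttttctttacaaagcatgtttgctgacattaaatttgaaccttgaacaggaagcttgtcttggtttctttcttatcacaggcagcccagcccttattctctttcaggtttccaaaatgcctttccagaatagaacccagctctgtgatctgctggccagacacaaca
Sprr1a: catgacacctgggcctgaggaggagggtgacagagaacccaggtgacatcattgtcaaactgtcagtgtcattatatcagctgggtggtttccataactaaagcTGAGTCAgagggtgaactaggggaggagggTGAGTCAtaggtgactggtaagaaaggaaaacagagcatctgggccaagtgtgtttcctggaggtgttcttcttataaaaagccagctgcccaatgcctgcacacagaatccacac
The Sprr1a sequence held the AP-1 letters at 2 places, beginning 146 and 116 bases before the start (positions -146 and -116), and the Sprr2a1 sequence held none. Of 32851 promoters cut to the same length 6.75% held the letters at least once. The Sprr2a1 sequence was identical over all 250 bases to that upstream of its neighbour Sprr2a2 (chr3:92250397-92250646), and the longest GENCODE transcripts of the pair, 3003 and 2867 bases, were 99.93% identical where they aligned. The transcript of a further copy, Sprr2a3, was 98.92% identical to that of Sprr2a1 where they aligned. Reads of these copies can therefore be assigned to any of them, and the Sprr2a1 level is uncertain to that extent.

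Sprr2a1 was listed at 192, 231 and 1490 FPKM in irradiated CD24− replicates 1 to 3 and at 6.58, 6.91 and 48.8 FPKM in irradiated CD24+ replicates 1 to 3. Non-irradiated CD24+ replicates 1 and 2 had 3.13 and 32.7 FPKM. Every CD24− library lay above every CD24+ library, and replicate 3 stood far above the others within each irradiated gate. Within a replicate number the ratio of CD24− to CD24+ cells was nonetheless near constant, at 29.1, 33.4 and 30.6 in numbers 1 to 3. The log2 fold change between the irradiated gates was 4.82 ± 0.96 (SE; limma, Benjamini-Hochberg adjusted p = 0.00141), or 4.31 relative to the median gene. Sprr2a2 had 6.22, 7.41 and 33.2 FPKM in CD24− cells and 1.06, 1.81 and 9.10 FPKM in irradiated CD24+ cells, so it had the same order of libraries within each gate at a lower level. Its log2 fold change of 1.72 missed the threshold (adjusted p = 0.0565) and passed with the replicate block (adjusted p = 5.45e-06). Enterocyte markers had the same order of libraries as Sprr2a1 in CD24− cells, with summed levels of 16102, 21610 and 35680 FPKM in replicates 1 to 3, and their part in the Sprr2a1 level was not tested.

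Sprr1a was much lower than Sprr2a1 on the same per-length scale. It stood at 1.06, 0.181 and 4.27 FPKM in irradiated CD24− cells and at 0.354, 0.0747 and 1.27 FPKM in irradiated CD24+ cells. Non-irradiated replicate 1 was listed at 0 and replicate 2 at 0.237 FPKM. The gates overlapped, and within each the order of replicates was 2, 1, 3 from low to high. Sprr1a was not called between the irradiated gates (log2 fold change 0.65 ± 0.45; limma, adjusted p = 0.239), but it was called higher in CD24− cells with the replicate block (adjusted p = 0.0139). Each CD24− library was above the CD24+ library of its number, by 2.99-fold, 2.43-fold and 3.37-fold in numbers 1 to 3. The ratio in number 2 rests on about 5.09 fragments in CD24− and 2.55 in CD24+ cells, and CD24+ replicate 1 had about 11.3. The keratinocyte markers Krt5 and Krt1 were at 0 in every library, Krt14 did not exceed 0.0719 FPKM and Ivl, another cornified envelope precursor, did not exceed 0.0235 FPKM. Krt10, from the same marker list, was present in every library at 0.438 to 1.26 FPKM and was highest in the irradiated CD24− libraries. The paralogues Sprr1b, Sprr2d, Sprr2e, Sprr2f, Sprr2g, Sprr2h, Sprr2i, Sprr2k, Sprr3 and Sprr4 were also listed at 0 in every library. Sprr2b, below the filter, had 0.404, 0.615 and 5.79 FPKM in irradiated CD24− replicates 1 to 3, 0, 0.0607 and 0.0911 FPKM in irradiated CD24+ replicates 1 to 3, and 0 and 0.0668 FPKM in non-irradiated CD24+ replicates, so replicate 3 was its highest library in both irradiated gates.

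Il33 lies on chromosome 19, and RefSeq gives it a pair of start sites on the plus strand. The 250 bases before each (chr19:29924863-29925112 and chr19:29945540-29945789, GRCm38.p6) are shown with the letters GGAATG or CATTCC, the TEAD motif on either strand, in capitals, because YAP acts through TEAD factors and Il33 had the smallest p of the 7 genes tested between the irradiated gates.
Il33 upstream start: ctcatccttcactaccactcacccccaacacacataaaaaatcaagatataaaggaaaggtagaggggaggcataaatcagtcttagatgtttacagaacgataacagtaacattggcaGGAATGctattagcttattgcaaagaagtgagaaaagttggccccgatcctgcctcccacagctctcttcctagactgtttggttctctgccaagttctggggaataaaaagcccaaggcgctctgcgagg
Il33 downstream start: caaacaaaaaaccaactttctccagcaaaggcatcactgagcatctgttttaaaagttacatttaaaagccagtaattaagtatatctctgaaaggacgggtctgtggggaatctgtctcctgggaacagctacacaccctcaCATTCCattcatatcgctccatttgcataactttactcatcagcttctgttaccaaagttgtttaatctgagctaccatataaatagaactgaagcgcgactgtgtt
The letters begin at position -131 of the first sequence and at -107 of the second. They occur in 12.6% of all 32851 promoters of this length, and a match of letters describes the sequence only. The Sprr2a1 and Sprr1a sequences shown above did not hold the TEAD letters.

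Il33 was listed at 3.50, 4.73 and 14.6 FPKM in irradiated CD24− replicates 1 to 3 and at 0.175, 0.126 and 0.917 FPKM in irradiated CD24+ replicates 1 to 3. In non-irradiated CD24+ replicates 1 and 2 it had 0.0935 and 0.474 FPKM. The CD24− libraries did not overlap with any CD24+ library, and replicate 3 was again the highest of each irradiated gate. The ratio of CD24− to CD24+ cells was 20.01, 37.5 and 15.9 in numbers 1 to 3. In numbers 1 and 2 it rests on only about 17.6 and 13.6 fragments in the CD24+ libraries. Il33 was higher in CD24− cells by 2.44 ± 0.40 on the log2 scale (SE; limma, adjusted p = 0.000375), which was 1.93 above the median gene. Il33 reached 1 FPKM in the irradiated CD24− libraries only, so it entered the test through the gate where it was high. A filter at 5 FPKM removed the gene, and the call held under each of the other alternatives tried, no filter included. Because a pseudocount of 1 exceeds the CD24+ levels, this log2 change understates the ratio of the FPKM means. Il1rl1, which encodes the IL-33 receptor ST2, was listed at 0 in all 8 libraries, and the co-receptor gene Il1rap ranged between 0.561 and 1.13 FPKM.

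**Figure D3:**
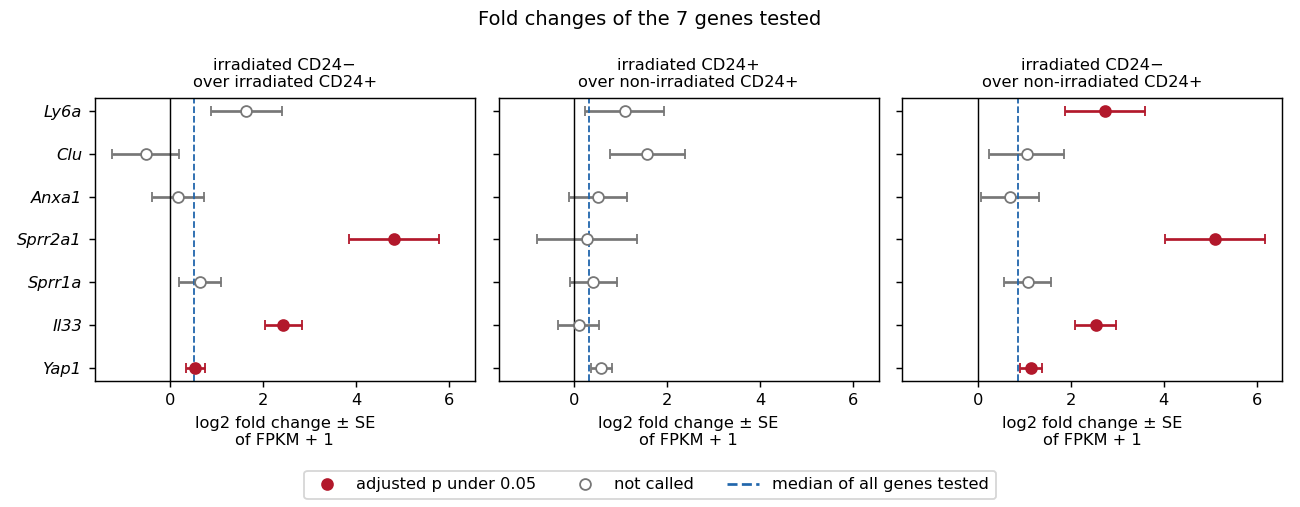
log2 fold change of FPKM + 1 with its standard error for the 7 genes that passed the filter, in the 3 comparisons named above the panels. Filled red points passed the limma test and the dashed line is the median of all genes tested. Sprr2a1 and Il33 lie far right of that line in both panels with CD24− cells, Yap1 lies on it in the left panel, and no point is filled in the middle panel.

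Ly6a, which interferons also induce in many mouse cell types, had 6.75, 18.5 and 47.4 FPKM in irradiated CD24− replicates 1 to 3 and 2.43, 4.33 and 12.1 FPKM in irradiated CD24+ replicates 1 to 3. The non-irradiated libraries had 0.111 and 6.67 FPKM. Replicate 3 of the CD24+ gate lay above replicate 1 of the CD24− gate, so the gates overlapped, but every CD24− library exceeded the CD24+ library with its number, by 2.78-fold, 4.28-fold and 3.91-fold in numbers 1 to 3. Without a block the difference of 1.64 ± 0.77 (log2, SE) missed the threshold (limma, adjusted p = 0.0895). With the replicate block it was called (adjusted p = 1.78e-05). Without replicate 3 of both gates, an alternative chosen after seeing the data, it was 1.52 and was called too (adjusted p = 0.0115), but with median-of-ratios scaling adjusted p was 0.321. Among Ly6 paralogues, Ly6e was the only member that passed the filter and was not called (log2 fold change -0.51 ± 0.35; adjusted p = 0.240), although the replicate block called it lower (adjusted p = 0.0342), as did median-of-ratios scaling (-1.14, adjusted p = 0.0184). Ly6d, below the filter, had 17.4 FPKM in CD24− replicate 3 and at most 0.730 FPKM elsewhere.

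Clu, the marker of the so-called revival stem cell in mouse intestine, had its order of gates turned between replicates. It had 1.20, 1.07 and 14.9 FPKM in irradiated CD24− cells, 3.98, 2.06 and 13.1 FPKM in irradiated CD24+ cells, and 1.34 and 0.718 FPKM in non-irradiated CD24+ cells. Replicate 3 was high in both gates, while in replicates 1 and 2 the CD24+ libraries were above the CD24− ones. The ratio of CD24− to CD24+ cells was 0.302, 0.517 and 1.14 in numbers 1 to 3. Over all 3 replicates of each gate Clu was not called (log2 fold change -0.52 ± 0.72; limma, adjusted p = 0.559). Without replicate 3 of the CD24− gate it was called lower in CD24− cells (-1.49, adjusted p = 0.0142), and without replicate 3 of both gates likewise (-0.87, adjusted p = 0.00560). Without replicate 3 of the CD24+ gate alone the value turned to 0.095 (adjusted p = 0.919), so the direction rests on these libraries.

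Anxa1 lies on the minus strand of chromosome 19 (upstream bases chr19:20390672-20390921, GRCm38.p6) and is shown with TEAD letters in capitals at position -236. It is shown because replicate 3 was its highest library in both irradiated gates, as for Sprr2a1.
Anxa1: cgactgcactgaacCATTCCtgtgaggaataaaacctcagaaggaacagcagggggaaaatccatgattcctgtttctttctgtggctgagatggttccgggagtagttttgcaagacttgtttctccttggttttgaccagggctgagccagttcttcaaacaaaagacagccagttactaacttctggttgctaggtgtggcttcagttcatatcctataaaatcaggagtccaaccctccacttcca
Anxa1 was at 0.261 FPKM or less in 6 of the 8 libraries. It had 0.0682, 0.113 and 4.20 FPKM in irradiated CD24− replicates 1 to 3, 0.109, 0.210 and 2.23 FPKM in irradiated CD24+ replicates 1 to 3, and 0.0234 and 0.261 FPKM in non-irradiated CD24+ cells. These correspond to about 295 and 151 fragments in the replicates 3 and to between 1.78 and 18.9 fragments in the other libraries. The ratio of CD24− to CD24+ cells was 0.624, 0.539 and 1.88 in numbers 1 to 3. The gene passed the filter through the replicates 3 alone and was not called between the gates (log2 fold change 0.17 ± 0.56; limma, adjusted p = 0.813). The value turned to -0.58 without CD24− replicate 3 and to -0.087 without replicate 3 of both gates.

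Yap1 and Cyr61 did not share that pattern. The 250 bases before the Yap1 start (chr9:8004597-8004846, minus strand) and before the Cyr61 start, which RefSeq lists under the newer symbol Ccn1 (chr3:145649986-145650235, minus strand), are shown because Cyr61 is a textbook YAP/TEAD target and each holds the TEAD letters once, at -141 and -103.
Yap1: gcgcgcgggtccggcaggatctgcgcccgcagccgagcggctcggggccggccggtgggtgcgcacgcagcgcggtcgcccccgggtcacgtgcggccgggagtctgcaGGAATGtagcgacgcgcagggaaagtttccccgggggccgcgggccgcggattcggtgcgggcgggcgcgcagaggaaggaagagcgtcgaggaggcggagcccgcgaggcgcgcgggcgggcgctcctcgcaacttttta
Ccn1: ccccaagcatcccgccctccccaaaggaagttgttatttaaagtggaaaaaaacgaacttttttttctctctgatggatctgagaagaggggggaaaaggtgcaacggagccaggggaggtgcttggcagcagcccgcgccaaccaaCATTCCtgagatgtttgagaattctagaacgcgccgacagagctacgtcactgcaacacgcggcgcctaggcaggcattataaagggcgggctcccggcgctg
Yap1 had 18.7, 15.3 and 16.2 FPKM in irradiated CD24− cells and 10.5, 10.9 and 12.0 FPKM in irradiated CD24+ cells, with 5.35 and 9.11 FPKM in non-irradiated CD24+ cells. The 3 groups did not overlap, and the spread within each irradiated gate was small (means of 16.8 ± 1.74 FPKM in CD24− and 11.1 ± 0.768 FPKM in CD24+ cells, SD, n = 3 each). Between the irradiated gates Yap1 was called higher (log2 fold change 0.55 ± 0.21; limma, adjusted p = 0.0424), but relative to the median gene the difference was 0.039. The call ended without any 1 of the 6 irradiated libraries (adjusted p between 0.0714 and 0.141). With median-of-ratios scaling, which sets the median gene near 0, the value was -0.043 (adjusted p = 0.720).

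Cyr61, which encodes a secreted matricellular protein, did not reach the filter. It had 0.993, 0.526 and 1.21 FPKM in irradiated CD24− cells, 0.944, 0.907 and 0.883 FPKM in irradiated CD24+ cells and 0.508 and 0.862 FPKM in non-irradiated CD24+ cells. The groups overlapped, and in a fit without the filter the log2 fold change between the irradiated gates was -0.02 (limma, adjusted p = 0.948). Ctgf, the related connective tissue growth factor gene, was listed at 0 in 6 libraries. It had 0.009998 FPKM in CD24− replicate 3 and 0.0925 FPKM in irradiated CD24+ replicate 3, about 1.04 and 9.32 fragments. Among other CCN genes Wisp1 was at 0 in every library, as was Ankrd1, another frequently used YAP target.

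The second comparison asks what irradiation changed within the CD24+ gate. None of the 7 genes tested passed, and 0% of all genes tested were called in either direction, with a smallest adjusted p of 0.103 in limma. Limma gave 1424 genes an unadjusted p under 0.05, and Yap1 was 1 of them and the other 6 were not. Clu and Yap1 were the genes whose libraries did not overlap, both with irradiated cells above, as were 34.2% of all genes tested, with 1.13% the other way. Clu averaged 6.38 ± 5.90 FPKM in irradiated CD24+ cells (SD, n = 3) and 1.03 ± 0.441 FPKM in non-irradiated CD24+ cells (SD, n = 2), a log2 difference of 1.58 ± 0.81 (adjusted p = 0.348). Yap1 averaged 11.1 ± 0.768 FPKM in irradiated CD24+ and 7.23 ± 2.66 FPKM in non-irradiated CD24+ cells, a log2 difference of 0.60 ± 0.23 (adjusted p = 0.348), against a median of 0.32 over all genes tested. Without non-irradiated replicate 2 Yap1 was called (adjusted p = 0.0206), as were 46.2% of all genes tested in that direction.

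The other 5 genes had their non-irradiated libraries spread widely. The log2 difference was 1.09 ± 0.86 for Ly6a (limma, adjusted p = 0.404), 0.52 ± 0.63 for Anxa1 (0.552) and 0.42 ± 0.50 for Sprr1a (0.550). It was 0.29 ± 1.07 for Sprr2a1 (0.849) and 0.10 ± 0.44 for Il33 (0.869). Non-irradiated replicate 2 lay above replicate 1 for all 5, by 10.5-fold for Sprr2a1 and 60.3-fold for Ly6a. Replicate 1 held only about 4.8 fragments of Ly6a, so that ratio is imprecise. Interferon-stimulated genes differed the same way between these libraries, with Irf7 at 4.69 and 53.6 FPKM and Usp18 at 0.763 and 26.3 FPKM in replicates 1 and 2, and so did enterocyte markers, with summed levels of 518 and 2347 FPKM. Their part in the Ly6a and Sprr2a1 values was not tested. Without non-irradiated replicate 1 the difference turned to -0.30 for Ly6a, -1.23 for Sprr2a1 and -0.11 for Il33, so these directions rest on that library.

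The third comparison, of irradiated CD24− with non-irradiated CD24+ cells, shares all its libraries with the first 2. Limma called 4 of the 7 genes higher and 0 lower, where 65.7% of all genes tested were called higher and 4.99% lower. The same 4 genes had libraries that did not overlap, all with CD24− above, as did 70.1% of all genes tested, with 6.17% the other way. Sprr2a1 had 637 ± 739 FPKM in irradiated CD24− cells (n = 3) and 17.9 ± 20.9 FPKM in non-irradiated CD24+ cells (n = 2; SD), a log2 difference of 5.10 ± 1.07 (adjusted p = 0.00154). Il33 had 7.62 ± 6.10 FPKM in CD24− and 0.284 ± 0.269 FPKM in non-irradiated CD24+ cells, a difference of 2.54 ± 0.44 (adjusted p = 0.000455). Ly6a had 24.2 ± 20.9 FPKM in CD24− and 3.39 ± 4.64 FPKM in non-irradiated CD24+ cells, a difference of 2.73 ± 0.86 (adjusted p = 0.0145). Yap1 had 16.8 ± 1.74 FPKM in CD24− and 7.23 ± 2.66 FPKM in non-irradiated CD24+ cells, a difference of 1.14 ± 0.23 (adjusted p = 0.00124) that was 0.27 above the median gene. The Ly6a and Yap1 calls were lost with median-of-ratios scaling (adjusted p = 0.106 and 0.283), and those of Ly6a and Sprr2a1 without non-irradiated replicate 1 (adjusted p = 0.276 and 0.0514). Sprr1a (1.07 ± 0.50, adjusted p = 0.0742), Clu (1.06 ± 0.81, adjusted p = 0.255) and Anxa1 (0.69 ± 0.63, adjusted p = 0.333) were not called. The replicate block called Sprr1a (limma, adjusted p = 0.0164), but the numbers of the CD24+ groups did not pair, so that call cannot be relied on.

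Replicate 3 of both irradiated gates stood apart for most of these genes. The set was proposed with that in view, so the values, shares and ranks below are a description with no test. They score the genes on values that were in view at the choice, and they carry no weight as evidence. Anxa1 also passed the filter through the replicates 3 alone, so its excess followed from the filter. Outside the replicates 3 Sprr1a reached 1 FPKM only in CD24− replicate 1, so it too needed a replicate 3 to pass. The measure is the log2(FPKM + 1) level of replicate 3 minus the mean of replicates 1 and 2 of the same gate. In CD24− cells it was 2.82 for Sprr2a1, 2.90 for Clu, 1.98 for Ly6a, 2.25 for Anxa1, 1.76 for Sprr1a and 1.62 for Il33. In irradiated CD24+ cells it was 2.68 for Sprr2a1, 1.85 for Clu, 1.62 for Ly6a, 1.48 for Anxa1, 0.91 for Sprr1a and 0.74 for Il33. For Yap1 it was -0.06 in CD24− and 0.15 in CD24+ cells, and for Cyr61 0.34 in CD24− and -0.03 in CD24+ cells. Replicate 3 was the highest library of both gates for 7 of the 9 genes, and for 6 of the 7 that passed the filter, against 16% of all genes tested. The excess was at least 1 in both gates for 4 of the 7, Sprr2a1, Clu, Ly6a and Anxa1, against 0.634% of all genes tested. Ranked by the smaller of the gates' values among 11190 genes, Sprr2a1 came at place 3, Clu at 11, Ly6a at 24, Anxa1 at 31, Sprr1a at 93, Il33 at 138 and Yap1 at 3857.

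Other levels moved with replicate 3. Summed enteroendocrine markers were 391, 1184 and 3285 FPKM in CD24− replicates 1 to 3 and 265, 829 and 1113 FPKM in irradiated CD24+ replicates 1 to 3. Chga and Chgb made up most of the CD24− replicate 3 sum (1132 and 1831 FPKM). Of the 8 markers 4 were highest in replicate 3 of both gates, and Cck, Gcg, Ghrl and Sct were not. Gcg was below the mean of replicates 1 and 2 in both gates. Stem cell markers of the crypt base (6 genes) stood at 408, 293 and 52.5 FPKM in CD24− cells and at 1157, 1062 and 931 FPKM in irradiated CD24+ cells, lowest in replicate 3 of each gate. Stromal markers had 4.45, 12.2 and 44.1 FPKM in CD24− and 2.15, 6.45 and 10.5 FPKM in irradiated CD24+ cells, nearly all of it Vim, which some epithelial cells also express, with 2 of 10 genes at 0 throughout. Endothelial and leukocyte sums stayed at or below 1.301 and 3.77 FPKM in every library. Enterocyte sums were highest in replicate 3 of both gates, at 16102, 21610 and 35680 FPKM in CD24− and 909, 825 and 1334 FPKM in irradiated CD24+ cells. Of the 9 enterocyte markers 5 were highest in replicate 3 of both gates. In CD24− cells Paneth sums fell from 20788 to 6134 and 3426 FPKM, and goblet sums from 8821 to 8420 and 4873 FPKM. In irradiated CD24+ cells neither sum was lowest in replicate 3. The part of these cell types in the replicate 3 values was not tested.

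**Figure D4:**
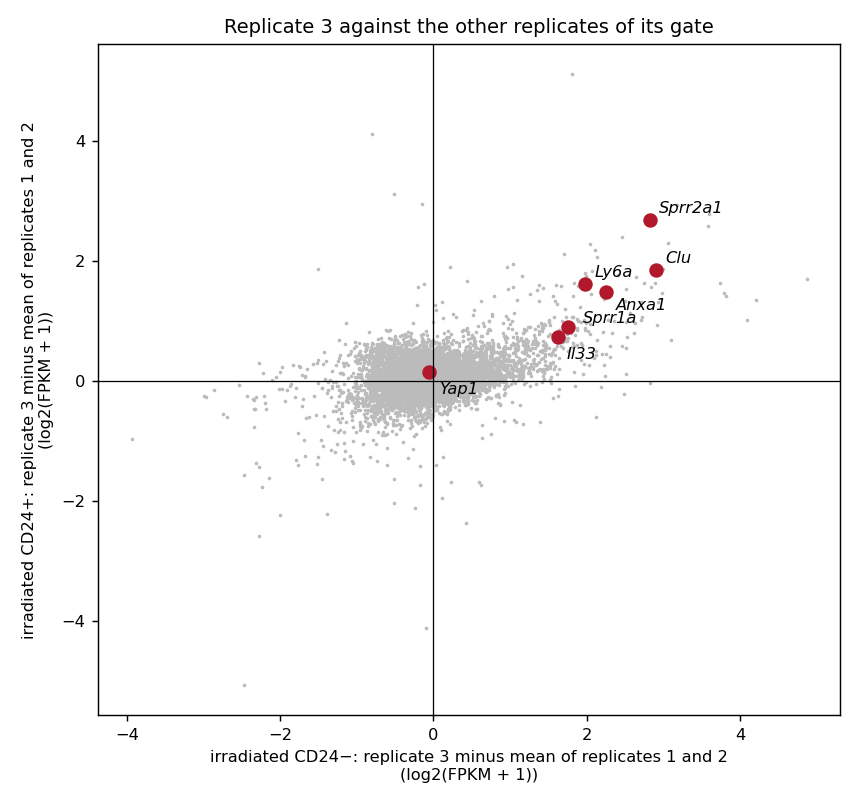
Each grey point is 1 of 11190 genes, plotted by the level of replicate 3 minus the mean of replicates 1 and 2 (log2(FPKM + 1)) in irradiated CD24− cells (x axis) and irradiated CD24+ cells (y axis). The 6 red points at the upper right are Sprr2a1, Clu, Ly6a, Anxa1, Sprr1a and Il33, and Yap1 lies near the origin.

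The replicate 3 pattern was then counted in lists of related genes, which overlap in a few members such as Anxa2, F3 and Il1rn. These lists were chosen with earlier results of these data known. Of 17 tested genes associated with fetal or injured epithelium, 16 were highest in replicate 3 of both gates, with median excesses of 1.76 in CD24− and 0.71 in CD24+ cells, where the medians of all genes were -0.10 and 0.04. Of 11 tested paralogues 10 did so (0.77 and 0.58). The pattern held for 16% of all genes tested. The counts were 2 of 9 YAP/TEAD target genes, 1 of 15 Hippo pathway genes and 8 of 26 interferon-stimulated genes. A cytokine and receptor list, of which Il18, Il1rn, Il13ra1 and Il4ra were tested, had 1 of 4, which was Il1rn. Il1rn and the fetal and injury gene Tubb6 reached 1 FPKM in the replicates 3 alone. The filter thus fixed their place in these counts. Areg, the epidermal growth factor receptor ligand amphiregulin, had 2.05, 2.68 and 23.9 FPKM in CD24− replicates 1 to 3 and 0.562, 0.353 and 3.53 FPKM in irradiated CD24+ replicates 1 to 3. The calcium-binding S100a6 had 72.8, 73.8 and 305 FPKM in CD24− and 14.5, 17.1 and 80.9 FPKM in irradiated CD24+ cells. Both genes were named after their values were seen. Emp1, a membrane protein gene, was the 1 fetal and injury gene without the pattern, since in the CD24+ gate replicate 3 was its lowest library.

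**Figure D5:**
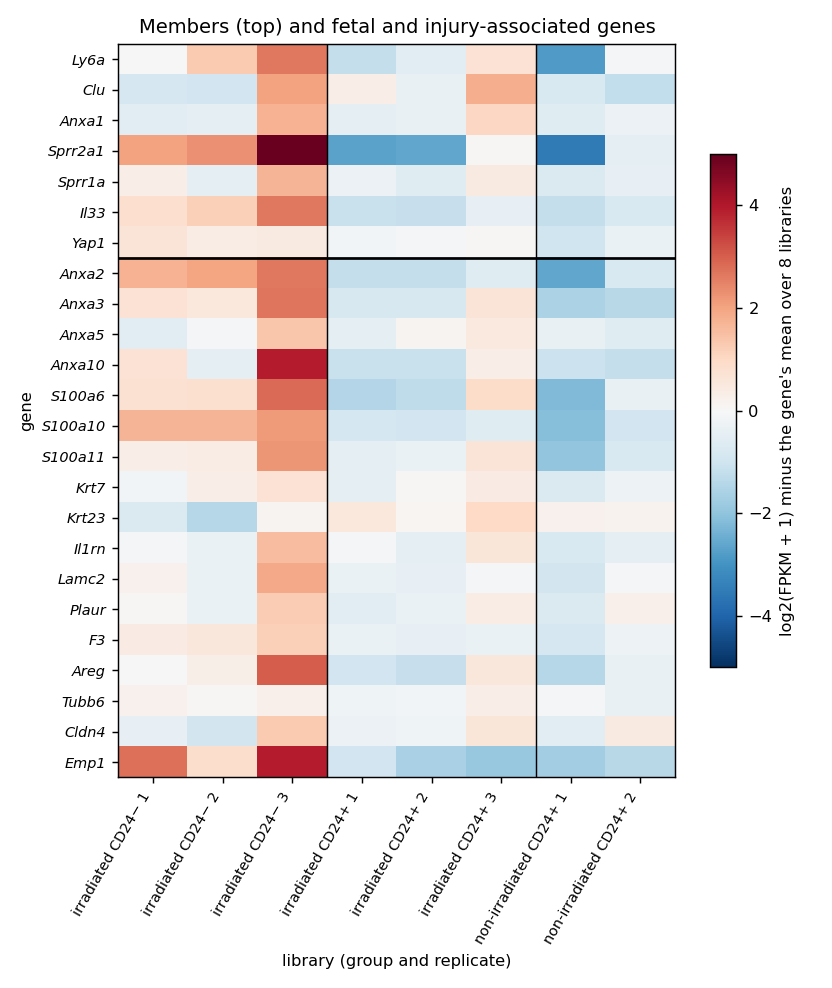
log2(FPKM + 1) minus each gene's mean over the 8 libraries, for the 7 genes that passed the filter (above the line) and 17 further genes associated with fetal or injured epithelium (below), with libraries in columns. Column irradiated CD24− 3 is the reddest for most genes, and irradiated CD24+ 3 is redder than the other CD24+ libraries for most of them.

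Between the irradiated gates the counts of each list are to be read against all genes tested, of which 48.6% were called higher and 7.27% lower (29.9% and 27.7% with median-of-ratios scaling, 55.4% and 8.75% with the replicate block). Of the 17 fetal and injury genes limma called 6 higher and 1 lower, a smaller share called higher than the 48.6% of all genes, with a median log2 fold change of 1.03 against 0.51 for all genes tested. Emp1 was higher, with 61.8, 16.2 and 142 FPKM in CD24− and 3.78, 2.07 and 1.52 FPKM in irradiated CD24+ libraries (log2 fold change 4.01 ± 0.59, adjusted p = 0.000187). Anxa2, an annexin of the plasma membrane, was higher by 3.11 ± 0.44 (770 FPKM in CD24− and 87.0 FPKM in irradiated CD24+ cells), and its binding partner S100a10 by 2.64 ± 0.32 (645 FPKM in CD24− and 102 FPKM in irradiated CD24+ cells). F3, the tissue factor gene, rose by 1.08 ± 0.22 and passed the filter through irradiated CD24− libraries only. The keratin gene Krt23 was the gene called lower (-1.21, adjusted p = 0.0121), a call lost after rescaling to TPM (-0.18, adjusted p = 0.645). S100a11 (1.03, adjusted p = 0.112) and the keratin gene Krt7 (0.31, adjusted p = 0.400) were not called, although S100a11 was with the replicate block (adjusted p = 0.000825). With the replicate block 11 of the 17 were higher and 1 lower, with median-of-ratios scaling 4 and 1, and after rescaling to TPM, where 89.4% of all genes were called higher, 15 and 0.

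Among paralogues 6 of 11 were called higher and 0 lower (median 1.44), near the 48.6% and 7.27% of all genes, and all 6 were annexins. Anxa13, a gut annexin, had 376 FPKM in irradiated CD24− and 52.8 FPKM in irradiated CD24+ cells (2.79 ± 0.27). Anxa4 had 420 FPKM in CD24− and 155 FPKM in CD24+ cells (1.44 ± 0.30), and Anxa11 had 87.8 FPKM in CD24− and 48.3 FPKM in CD24+ cells (0.86 ± 0.26). The Anxa11 call was lost with median-of-ratios scaling (0.23, adjusted p = 0.170). Anxa5 was not called (0.20 ± 0.42, adjusted p = 0.706). With the replicate block 9 paralogues were higher and 1, Ly6e, lower. The count was 3 higher and 1 lower with median-of-ratios scaling, 10 and 0 after rescaling to TPM, and 3 and 0 without irradiated CD24+ replicate 1.

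YAP/TEAD target genes were called higher for 7 of 9 and lower for 1 of 9 (median 1.19), where 48.6% of all genes were called higher and 7.27% lower, although Cyr61 and Ctgf were not among them. Gadd45a, a stress-induced growth arrest gene, had 22.3 FPKM in irradiated CD24− and 5.31 FPKM in irradiated CD24+ cells (1.88 ± 0.22). The kinase gene Nuak2 had 18.5 FPKM in CD24− and 4.24 FPKM in CD24+ cells (1.87 ± 0.27). The guanine nucleotide exchange factor gene Dock5 had 10.1 FPKM in CD24− and 3.18 FPKM in CD24+ cells (1.41 ± 0.20). Myof, which encodes myoferlin, was lower (-1.22 ± 0.21, adjusted p = 0.000592) and was no longer called after rescaling to TPM (-0.24, adjusted p = 0.338). Igfbp3 was not called (0.54 ± 0.31, adjusted p = 0.161), except with the replicate block (adjusted p = 0.0331). Median-of-ratios scaling left 6 higher and 1 lower, and the block gave 8 and 1. Of the 20 targets listed only 9 passed the filter. Of these, F3, Amotl2 and Igfbp3 reached 1 FPKM in irradiated CD24− libraries only, so they entered the test through that gate. Without the filter 7 of 18 were called higher and 3 lower, where 31.4% of all genes were called higher and 6.13% lower.

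Hippo pathway genes were called higher for 7 of 15 and lower for 2 of 15 (median 0.41, below that of all genes), near the 48.6% and 7.27% of all genes. This split depended on the scaling, with 2 higher and 6 lower after median-of-ratios scaling and 13 higher and 1 lower after rescaling to TPM. Wwc1, which encodes the upstream activator KIBRA, had 23.4 FPKM in CD24− and 7.42 FPKM in irradiated CD24+ cells (1.53 ± 0.20) and stayed higher under both. Tead3 was higher (0.97 ± 0.24), a call lost with median-of-ratios scaling (adjusted p = 0.0773). Tead2 was lower, with 0.812, 0.665 and 0.187 FPKM in irradiated CD24− and 2.5, 3.29 and 3.76 FPKM in irradiated CD24+ libraries (-1.44 ± 0.21), and stayed lower under both scalings. Vgll4, a TEAD cofactor that opposes YAP, was lower (-1.45 ± 0.28), but not after rescaling to TPM (adjusted p = 0.313). Mob1a (0.33 ± 0.24) and Sav1 (0.41 ± 0.19) were not called, although Sav1 was with the replicate block (adjusted p = 0.0470). The YAP paralogue gene Wwtr1 stayed at or below 0.423 FPKM in every library.

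Of the 4 tested genes of the cytokine and receptor list 3 were called higher (median 1.59), where 48.6% of all genes were. Il18 and Il1rn belong to the IL-1 family, and Il13ra1 and Il4ra do not. Il18, an epithelial cytokine of the same family as IL-33, had 134, 221 and 214 FPKM in irradiated CD24− and 11.5, 8.98 and 9.24 FPKM in irradiated CD24+ libraries, a log2 fold change of 4.10 ± 0.47 (limma, adjusted p = 3.73e-05). Unlike Il33 it was not highest in replicate 3. The type 2 cytokine receptor genes Il13ra1 (1.64 ± 0.22) and Il4ra (1.54 ± 0.24) were higher, and Il1rn, the IL-1 receptor antagonist gene, was not called (0.35 ± 0.43). Interferon-stimulated genes were called higher for 21 of 26 and lower for 1 (median 1.70), against 48.6% and 7.27% of all genes. The counts were 23 and 1 with the replicate block, 13 and 1 of 27 without the filter (31.4% and 6.13% of all genes), and 11 and 1 with median-of-ratios scaling, where all genes gave 29.9% and 27.7%. Ifit1 had 56.8 FPKM in irradiated CD24− and 3.32 FPKM in irradiated CD24+ cells (3.61 ± 0.79) and Isg15 had 107 FPKM in CD24− and 7.78 FPKM in CD24+ cells (3.51 ± 0.81). Oasl2 (2.57 ± 0.69) and Ifit3 (2.53 ± 0.53) were higher as well, and Ifitm3 was the gene called lower (-1.83 ± 0.49), which was lost after rescaling to TPM (adjusted p = 0.258). Bst2 (0.83 ± 0.51) and Gbp3 (0.39 ± 0.40) were not called without a block and were with the replicate block (adjusted p = 0.000488 for Bst2 and 0.0486 for Gbp3).

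Within the CD24+ gate limma called 0 genes of any list after irradiation, as it called 0% of all genes. Without non-irradiated replicate 2, which leaves 1 library in that group, it called some genes of every list higher, and a large share of all genes. With the replicate block, whose numbers do not pair between the CD24+ groups, it called 1 interferon-stimulated gene higher. With all libraries and no block the unadjusted p was under 0.05 for 1 of 17 fetal and injury genes, 1 of 11 paralogues, 0 of 9 YAP/TEAD targets, 2 of 15 Hippo pathway genes, 0 of 4 genes of the cytokine and receptor list and 2 of 26 interferon-stimulated genes. Over all genes tested it was 1424 of 11190, and the list counts were near or below that share. The most abundant members were Anxa2 (0.70 ± 0.49), Anxa4 (0.60 ± 0.34), S100a10 (0.72 ± 0.36), Gadd45a (0.35 ± 0.25), Nt5e (0.70 ± 0.86), Mob1a (0.46 ± 0.26), Nf2 (0.33 ± 0.26), Il18 (0.50 ± 0.52), Il13ra1 (0.19 ± 0.24), Ifitm3 (1.74 ± 0.55) and Irf7 (-0.00062 ± 0.75), all as log2 differences with SE. Between irradiated CD24− and non-irradiated CD24+ cells the calls were 10 higher and 0 lower of 17, 8 and 0 of 11, 8 and 1 of 9, 10 and 2 of 15, 3 and 0 of 4, and 21 and 0 of 26 in the same order of lists, where 65.7% of all genes were called higher and 4.99% lower. Without non-irradiated replicate 1 the counts called higher fell for every list but the cytokine and receptor list, as did the share of all genes. With median-of-ratios scaling they were 5 higher and 1 lower of 17, 4 and 1 of 11, 5 and 1 of 9, 1 and 5 of 15, 3 and 0 of 4, and 3 and 0 of 26, against 27.5% higher and 25% lower of all genes. Emp1 (4.08 ± 0.66), Anxa2 (3.81 ± 0.49), Anxa3 (2.78 ± 0.59), Nt5e (3.002 ± 0.86), Wwc1 (1.64 ± 0.22), Il18 (4.59 ± 0.52) and Isg15 (3.63 ± 0.91) were among those called higher. Anxa10, a gastric and injury-associated annexin, was higher by 2.52 ± 0.96 (adjusted p = 0.0348).

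For each gene that passed the filter, the genes with the nearest profile over the 8 libraries were found by the root mean square difference of log2(FPKM + 1) values centred on each gene's mean. For Yap1, which varies little, these were Nup88, Fam50a and Acad9, at distances of 0.049 to 0.058. For Il33 they were Acot12, Igsf23 and Slc19a3 (0.14 to 0.21). Acot12 had 4.64, 5.49 and 15.1 FPKM in irradiated CD24−, 0.167, 0.239 and 0.721 FPKM in irradiated CD24+ and 0.158 and 0.710 FPKM in non-irradiated CD24+ libraries, close to Il33 in every library. The nearest to Sprr2a1 were Ada, Enpp3 and the enterocyte apolipoprotein gene Apoa4 (0.52 each), and Ada, which encodes adenosine deaminase, had 215, 144 and 1593 FPKM in CD24− and 7.27, 7.72 and 63.8 FPKM in irradiated CD24+ libraries. Ly6a was nearest to S100a6, Pyy and Sprr2a2 (0.50 to 0.59), of which Pyy encodes an enteroendocrine peptide. Clu was nearest to Phlda3, Pgc and Ephx1 (0.43 to 0.55), and Phlda3, a p53-induced gene, had 0.812, 0.518 and 5.69 FPKM in irradiated CD24−, 2.66, 1.98 and 4.89 FPKM in irradiated CD24+ and 0.355 and 0.486 FPKM in non-irradiated CD24+ libraries. Anxa1 was nearest to Tnfrsf11b, Il1rn and Crip2 (0.29 to 0.31) and Sprr1a to Arnt2, Il1rn and Fbxo44 (0.18 to 0.25).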

How the data were processed

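RNA was extracted from sorted cells and made into libraries with a kit (TruSeq RNA v2, per the labels' protocols) that marks no strand, so reads of overlapping genes on opposite strands are not told apart. The authors deposited FPKM per gene and library, with TopHat2 2.1.0, StringTie 1.3.4 and mm9 listed in the submitters' processing notes; no source used here states the annotation or any filter. Reads of near-identical copies are shared or split between them.

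The 8 libraries were grouped by their labels. Of 24015 entries (24013 symbols, repeats summed) those with 1 FPKM or more in at least 2 libraries were tested (11190) as log2(FPKM + 1), which understates changes of low genes, in 1 fit of all 3 groups with limma 3.58.1 (R 4.3.3; lmFit, contrasts.fit, eBayes with trend) and Benjamini-Hochberg adjustment over all genes. The test was tried on simulated data. SE is limma's and SD is between libraries. Alternatives were pseudocount 0.1, no filter, a filter at 5 FPKM, TPM, median-of-ratios scaling, only the 2 groups compared, a replicate block, leaving out each library (a group left with 1 library took its spread from the others) and, chosen after seeing the data, leaving out replicate 3 of both irradiated gates. Deviations from the group means of same-numbered libraries of the irradiated gates correlated across genes at 0.366, 0.231 and 0.402, which is where the pairing comes from; the labels do not state it. The numbers of the CD24+ groups did not pair (0.232 and -0.050).

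The 9 genes and the lists were chosen with earlier results of these data known. In each list and comparison up to 4 called genes with the largest change and no overlap, and up to 2 not called with the highest mean, were named; others named were chosen after their values were seen. Depth was approximated with GENCODE transcript lengths of another build, so fragment numbers are approximate. Promoters are RefSeq's (GRCm38.p6), cut to 250 bases, with motifs sought on both strands; 6 of the 9 genes matched. Python 3.11.15, pandas 2.3.3, Biopython 1.88 and matplotlib 3.10.9 were used.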

Additional observations from a re-analysis of the deposited data

How the results depend on the processing

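Between the irradiated gates 3 of the 7 genes tested were called; the count was 5 after rescaling to TPM, 5 with the replicate block, which adds Ly6a and Sprr1a, and 2 to 3 when 1 library was left out. In irradiated against non-irradiated CD24+ cells it was 0, and 0 to 1 when 1 library was left out, the 1 being Yap1 without non-irradiated replicate 2. In irradiated CD24− against non-irradiated CD24+ cells it was 4, and 2 with median-of-ratios scaling, with a range of 2 to 5 when 1 library was left out and the lowest without non-irradiated replicate 1. Replicate 3 was the highest library of both irradiated gates for 7 of 9 genes under every scaling tried. A pseudocount cannot change which library is highest.

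The median gene between the irradiated gates stood at 0.51 as deposited, 1.60 after rescaling to TPM and -0.02 with median-of-ratios scaling, and the calls over all genes were 5439 higher and 813 lower, 10000 and 260, and 3346 and 3096. Against non-irradiated cells irradiated CD24− cells had 7349 higher and 558 lower, 10430 and 212 after rescaling to TPM, and 3078 and 2792 with median-of-ratios scaling. In irradiated against non-irradiated CD24+ cells the replicate block, whose numbers do not pair there, called 77 genes higher and 15 lower, none of the 7.

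Values that turned sign are these, all as log2 differences, and none was called. Where a library left out turned a sign, the range over all left-out libraries is given. Irradiated against non-irradiated CD24+ cells had Ly6a at -0.30 (to 2.48), Sprr2a1 at -1.23 (to 1.80) and Il33 at -0.11 (from -0.14 to 0.32) without non-irradiated replicate 1. There the block gave Anxa1 -0.10, Sprr1a -0.024, Sprr2a1 -0.63 and Il33 -0.29, median-of-ratios scaling gave Sprr2a1 -0.097, and leaving out irradiated CD24+ replicate 3, alone or with its CD24− counterpart, gave Sprr2a1 -0.61 and Il33 -0.14. Between the irradiated gates Clu turned to 0.42 after rescaling to TPM and 0.095 without CD24+ replicate 3 (from -1.49). Anxa1 turned to -0.58 without CD24− replicate 3 (to 0.66), -0.11 and -0.045 without CD24+ replicate 1 or 2, and -0.087 without replicate 3 of both gates, and Yap1 to -0.043 with median-of-ratios scaling. Against non-irradiated cells Anxa1 in CD24− cells turned to -0.059 without replicate 3 of that gate, alone or in both (to 1.08). The cause was not tested in any of these. At fewer than about 20 fragments depth limits what can be seen. This holds for Ctgf, for Anxa1 outside the replicates 3 and for some libraries of Sprr1a, Il33 and Ly6a.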

Other observations

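Beyond the genes above, those with the largest excess of replicate 3 over replicates 1 and 2 in both irradiated gates, ranked by the smaller of the gates' values among 11190 genes, included the following. They were picked by their values, so no test applies. Clca6, of the calcium-activated chloride channel regulator family, came at place 2, with 39.7, 14.2 and 300.2 FPKM in irradiated CD24− replicates 1 to 3, 1.07, 0.699 and 12.0 FPKM in irradiated CD24+ replicates 1 to 3, and 1.81 and 6.79 FPKM in non-irradiated CD24+ replicates. Akr1b8, an aldo-keto reductase gene, had 12.2, 16.8 and 127 FPKM in irradiated CD24− cells, 1.82, 2.09 and 13.6 FPKM in irradiated CD24+ cells and 0.768 and 1.14 FPKM in non-irradiated CD24+ cells. Nt5e, which encodes the ectonucleotidase CD73, had 10.3, 3.62 and 56.4 FPKM in irradiated CD24− cells, 0.392, 1.59 and 5.90 FPKM in irradiated CD24+ cells and 0.649 and 0.961 FPKM in non-irradiated CD24+ cells. Enpp3, an ectonucleotide pyrophosphatase gene, had 69.7, 44.9 and 301 FPKM in irradiated CD24− cells, 2.52, 1.85 and 9.84 FPKM in irradiated CD24+ cells and 1.23 and 8.06 FPKM in non-irradiated CD24+ cells.

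Tff2, a trefoil peptide gene best known from stomach mucus, was highest in irradiated CD24+ cells, with 0, 0 and 3.33 FPKM in irradiated CD24− replicates 1 to 3, 36.4, 0.267 and 30.4 FPKM in irradiated CD24+ replicates 1 to 3, and 2.31 and 0.246 FPKM in non-irradiated CD24+ replicates. Tph1, the serotonin synthesis enzyme of enterochromaffin cells, had 7.37, 22.4 and 57.8 FPKM in irradiated CD24− cells, 2.76, 13.5 and 25.3 FPKM in irradiated CD24+ cells and 4.33 and 4.18 FPKM in non-irradiated CD24+ cells.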
